A study of Mus musculus with 9 samples.

Results

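The MHC class II genes and their chaperones were followed across mouse ovaries of 3 groups. The set holds 7 genes, H2-Aa, H2-Ab1, H2-Eb1, H2-Ea, Cd74, H2-DMa and H2-DMb1, of 19057 genes named on the array. Every probe that the platform annotation gives to one of these symbols was taken, which made 12 probes. H2-Ab1 and Cd74 have 3 probes each, H2-DMa has 2, and H2-Aa, H2-Eb1, H2-Ea and H2-DMb1 have 1 each.

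Illumina expression BeadChips were used to measure total RNA of ovaries; on these chips a probe on a bead captures labelled cRNA and is read as a brightness. The SSCTR group holds ovaries of mice that had received spermatogonial stem cells, the germline stem cells of the testis. The POF group holds ovaries of a premature ovarian failure model, and the WT group holds wild-type control ovaries. All 3 groups are labelled C57BL/6. The labels do not say how ovarian failure was brought about, whether recipients had it before the transplant, how old the mice were, or whether replicates are separate animals, so p-values measure only the spread between these samples. The table has 3 columns a group, but replicate 1 was computed from the other two, as their mean signal scaled by one of a few fixed factors. The results below therefore rest on replicates 2 and 3, 6 arrays in all and n = 2 in each group.

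MHC class II molecules are pairs of an alpha and a beta chain that show peptides from swallowed proteins to CD4+ T cells. In the mouse, H2-Aa and H2-Ab1 encode the chains of the I-A molecule, and H2-Ea and H2-Eb1 those of I-E. Cd74, the invariant chain, holds new pairs together and blocks their groove, and the H2-DM pair encoded by H2-DMa and H2-DMb1 helps to exchange its last fragment for peptide. These genes are known to be expressed mainly by dendritic cells, B cells and macrophages, under the coactivator Ciita, and ovaries are known to hold many resident macrophages. In bulk tissue, fewer cells of a type and less RNA per cell cannot be told apart.

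C57BL/6 mice carry the b haplotype of this locus. As background, that haplotype has a deletion at the start of H2-Ea and makes no I-E molecule, and RefSeq annotates H2-Ea in the C57BL/6J reference as a transcribed pseudogene. The H2-Ea probe was detected in every SSCTR and every WT sample, and in no POF sample. Which RNA this probe read on the WT and SSCTR arrays was not tested. Whether the groups differ in genotype was not tested either. Since every WT and SSCTR array shows the H2-Ea signal, no comparison could be repeated without the arrays concerned. The alleles of I-A and I-E genes are also known to differ in sequence between haplotypes, so a probe may read one allele better than another; that was not tested either.

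Class II promoters are known for an X box, bound by the RFX complex, and a Y box, bound by NF-Y. RefSeq promoter windows (build GRCm38.p6), which span the gene start, were taken for H2-Aa, H2-Eb1, H2-DMb1 and, with 2 starts, H2-DMa. They are shown because one I-A gene, one I-E gene and one chaperone gene hold the same arrangement. Capitals mark GNAACT, letters of the X box, and GATTGG, letters of the Y box. The letters were chosen after reading these windows and searched on both strands, with a gap of 15 to 35 bases between them.
H2-Aa (chr17:34287855-34287916, minus strand): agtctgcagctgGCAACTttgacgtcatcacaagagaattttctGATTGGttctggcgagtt
H2-Eb1 (chr17:34305764-34305824, plus strand): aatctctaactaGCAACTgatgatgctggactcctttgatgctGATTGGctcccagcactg
H2-DMb1 (chr17:34153085-34153146, plus strand): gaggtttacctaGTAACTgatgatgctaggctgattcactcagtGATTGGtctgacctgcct
The gap was 26 bases in H2-Aa and H2-DMb1 and 25 in H2-Eb1, and the X letters began 81, 94 and 91 bases before the start of H2-Aa, H2-DMb1 and H2-Eb1. Neither H2-DMa window held the pair. Cd74, which lies on another chromosome, was left out here, so whether its promoter holds the pair is not shown. GNAACT was found in 42.7% and GATTGG in 16.1% of 32544 promoter windows, and the pair in this arrangement in 0.307%.

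Probes above background, with a detection p under 0.05, numbered 16546 and 16040 on the SSCTR arrays, 17855 and 18041 on the POF arrays, and 17752 and 18019 on the WT arrays. A probe was tested where it was above background on at least 2 of the 6 arrays, as 19394 probes were. Of 9 ovary genes on the array, 8 were above background on every array, among them the oocyte genes Gdf9 and Zp3 and the steroid synthesis gene Cyp11a1. Amh, a hormone of growing follicles, was not above background on any array. All 12 class II and chaperone probes entered the test, 10 of them above background on all 6 arrays. H2-Aa entered only through the POF arrays and H2-Ea only through the WT and SSCTR arrays, so these 2 had to differ between groups, and their count supports nothing.

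The first comparison set POF against WT ovaries. RNA of the I-A and I-E genes H2-Aa, H2-Ab1 and H2-Eb1 was 3.51-fold to 8.65-fold higher in POF, apart from H2-Aa, for which there is a bound of 4.85-fold. H2-Ea was lower in POF, by at least 4.14-fold with both WT arrays, but this rested on 2 unlike WT arrays, and the call ended in 3 alternatives given below. The probes of Cd74, H2-DMa and H2-DMb1 were 1.64-fold to 2.75-fold higher in POF, and 4 of these 6 passed. All values below are log2 intensities after background correction, and changes are log2 differences from one limma model of all 3 groups with Benjamini-Hochberg adjustment over all probes tested.

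H2-Eb1, the I-E beta chain, measured 11.32 and 11.50 in POF ovaries, against 8.96 and 8.97 in WT ovaries. Both POF arrays lay far above both WT arrays, and the spread within each group was small. The change was 2.44 ± 0.18 (SE, n = 2 per group), 5.42-fold, with a limma adjusted p of 9.83e-05.

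H2-Ab1, the I-A beta chain, was read by 3 probes. On ILMN_1226525 it measured 11.14 and 11.45 in POF against 8.13 and 8.24 in WT. On ILMN_2631423, the brightest, it measured 11.40 and 11.08 in POF against 9.13 and 9.72 in WT. On ILMN_2913716 it measured 10.47 and 10.67 in POF against 8.44 and 8.64 in WT. POF was above WT on every array of all 3 probes, but the size depended on the probe. The changes were 3.11 ± 0.19, 1.81 ± 0.24 and 2.03 ± 0.18 in that order, with limma adjusted p of 2.82e-05, 0.00199 and 0.000295.

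H2-Aa, the I-A alpha chain, measured 7.40 and 6.61 in POF ovaries, against 4.27 and 4.40 in WT ovaries. It was not above background in WT, where its detection p was 0.81 and 0.455, so the fitted change of 2.67 ± 0.26 (limma adjusted p = 0.000458) is replaced by a bound of at least 4.85-fold. For a bound, each dimmer array counts at the lowest level of any detected probe, or at the measured level of the gene itself if that is larger. Its deposited signal was 248 and 176 on the POF arrays against 89.3 and 95.5 on the WT arrays. Without background correction the fitted change of this dim probe was 1.18 in place of 2.67, still past the threshold.

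H2-Ea, the I-E alpha chain, was the member that was lower. It measured 4.33 and 4.29 in POF ovaries, against 5.94 and 7.61 in WT ovaries. It was not above background on either POF array (detection p of 0.638 and 0.764), and the WT arrays differed between themselves by 1.95 times in signal. The limma adjusted p was 0.00786, and the fitted change of -2.46 ± 0.43 was -3.30 without WT replicate 2 and -1.63 without WT replicate 3. The call ended without POF replicate 2 (adjusted p = 0.0632), without POF replicate 3 (0.0747) and with no filter on dim probes (0.0633). Without background correction the fitted change was -1.10.

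**Figure D1:**
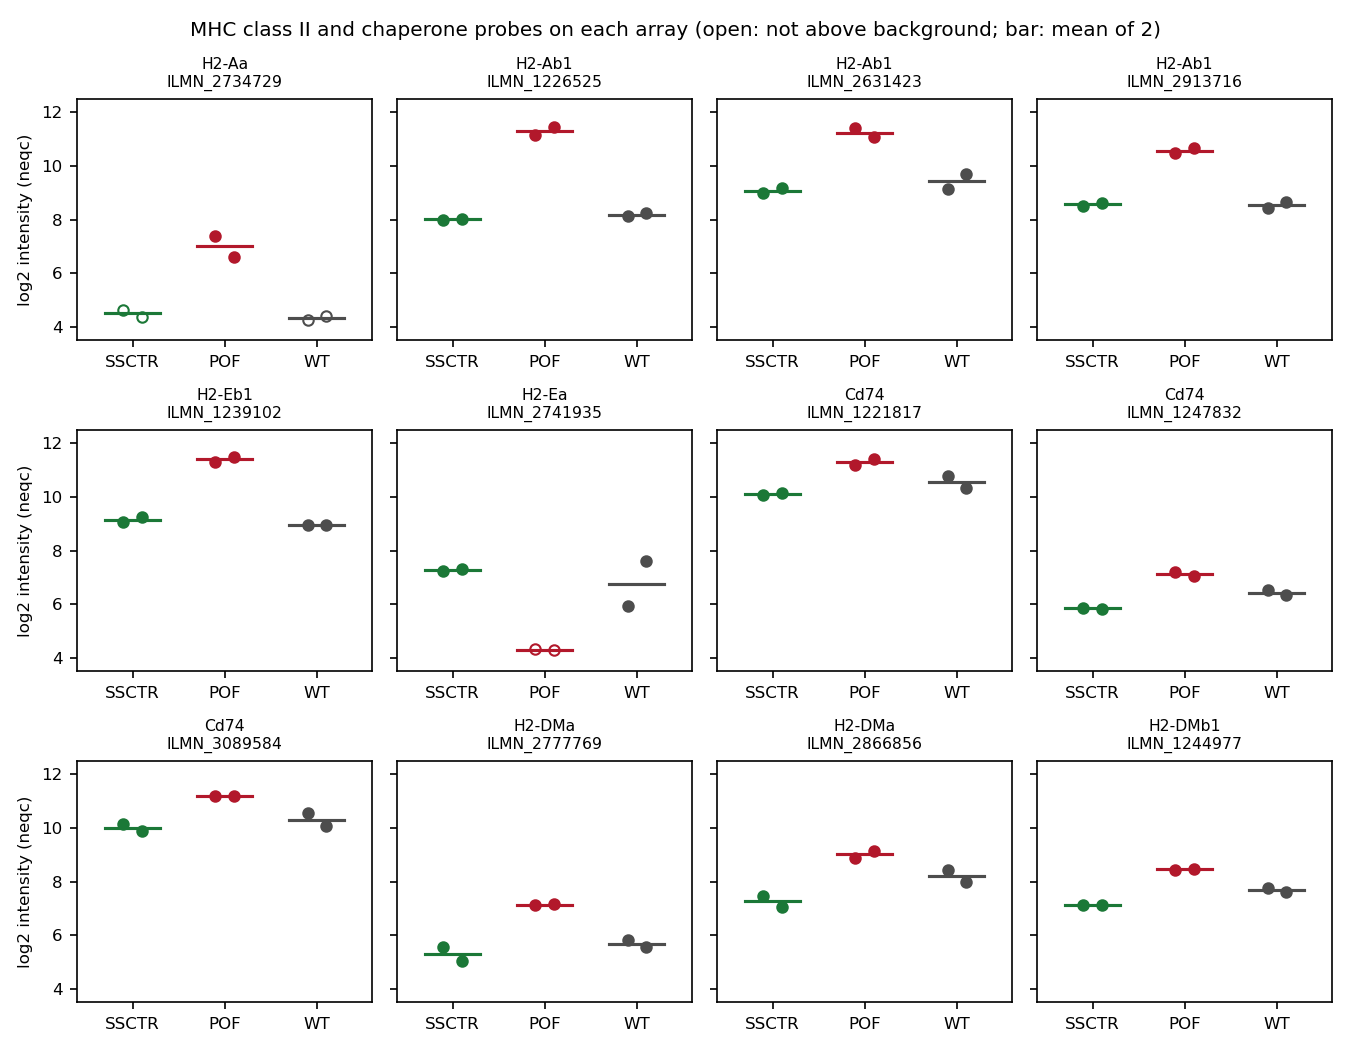
Log2 intensity (vertical axis) of each of the 12 probes on the 6 arrays, by group along the horizontal axis, with filled points above background, open points not above background and bars at the mean of 2 arrays. H2-Aa, H2-Ab1 and H2-Eb1 stand higher in POF than in SSCTR and WT, H2-Ea is below background in POF alone, and the Cd74 and H2-DM probes are highest in POF.

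Cd74 was read by 3 probes. On the brightest, ILMN_1221817, it measured 11.20 and 11.43 in POF against 10.78 and 10.33 in WT, a change of 0.76 ± 0.21 that did not pass (limma adjusted p = 0.0518). On ILMN_3089584 it measured 11.21 on both POF arrays against 10.55 and 10.07 in WT, a change of 0.90 ± 0.21 (adjusted p = 0.0291). On ILMN_1247832 it measured 7.22 and 7.07 in POF against 6.53 and 6.33 in WT, a change of 0.71 ± 0.18 (adjusted p = 0.0394). The 3 probes thus gave nearly one size of difference and fell on both sides of the threshold. The calls of ILMN_1247832 and ILMN_3089584 ended when 1 array was left out, the first without any of the 4 arrays compared (adjusted p of 0.101 to 0.195), the second without POF replicate 2 (0.126), without POF replicate 3 (0.131) or without the WT array of replicate 3 (0.173), and with no filter on dim probes (0.0637). That of ILMN_1247832 also ended when only the 4 arrays were fitted (0.053) or with the replicate number as a block (0.0547). The brightest probe passed in 6 of 13 alternatives. These were an offset of 50 (0.0096), no background correction (0.00417), the authors' normalized table (0.00447) and a prior that follows the mean (0.00139). The others were one probe per gene (0.0424) and a filter at detection p under 0.01 (0.0436). No background correction and the authors' table gave nearly the same values and are not separate results.

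The peptide exchange genes follow. H2-DMa measured 8.87 and 9.16 in POF against 8.42 and 7.98 in WT on its brightest probe, ILMN_2866856, a change of 0.81 ± 0.23 that did not pass (limma adjusted p = 0.0584). It passed with an offset of 50 (0.0137), with no background correction (0.00747), with the authors' normalized table (0.00753), with one probe per gene (0.0496) and with a prior that follows the mean (0.00956). On its dimmer probe, ILMN_2777769, it measured 7.12 and 7.17 in POF against 5.81 and 5.57 in WT, a change of 1.46 ± 0.22 (adjusted p = 0.00404). H2-DMb1 measured 8.44 and 8.48 in POF against 7.78 and 7.62 in WT, a change of 0.76 ± 0.17 (adjusted p = 0.0267). The H2-DMb1 call ended when any 1 of the 4 arrays was left out (adjusted p of 0.0886 to 0.147). H2-DMb1 and its neighbour H2-DMb2 are near copies, and a probe could read both.

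Of the 12 probes, 9 were higher in POF, 1 was lower and 2 did not pass. Over all 19394 probes 9.52% passed, 5.68% higher and 3.84% lower. H2-Aa is among the higher probes and genes counted here, and H2-Ea is the lower one. Both had to differ by the way they entered the test, so their part in these counts and the median supports nothing. The median change of the 12 was 1.18, against -0.03 over all probes. Taking the brightest probe for each gene, 4 of 7 were higher, 1 was lower and 2 (Cd74 and H2-DMa) did not pass, beside 10.5% of 11053 named genes, 6.13% higher and 4.37% lower. The count by brightest probe fell when any array of either group was left out, and also with no filter on dim probes. It was 7 of 7 in place of 5 with an offset of 50, with no background correction and with the authors' normalized table. The same count came with one probe per gene and with a prior that follows the mean. Calls over all probes rose too, from 1847 to 2568 with the offset and 2661 with no correction. They were 2661 with the authors' table and 2624 with the prior. With one probe per gene, which tests fewer probes, they were 1656.

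The I-A and I-E genes and the chaperones were also set against each other on the same arrays, by taking for each array the log2 value of a gene minus that of Cd74, brightest probes. In POF relative to WT this difference was 1.68 larger for H2-Eb1 (1.42 to 1.93 over pairs of arrays) and 1.05 larger for H2-Ab1 (0.26 to 1.84). It was 0.05 for H2-DMa (0.02 to 0.08) and between -0.24 and 0.24 over pairs of arrays for H2-DMb1. The H2-DMa value depended on the probe, as its dimmer probe changed by 1.46 against 0.81 on the brightest. H2-Aa and H2-Ea have no value relative to Cd74, since each lay below background in a group compared. With 2 arrays against 2, an exact two-sided permutation p cannot go below 0.333, so these differences between members are a description and were not tested.

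The comparison of SSCTR with POF ovaries gave the opposite picture, and it shares the POF arrays with the comparison above. Of the 12 probes 11 were lower in SSCTR and 1, H2-Ea, was higher, where 10.1% of all probes passed, 5.98% lower and 4.12% higher. H2-Aa is among the lower ones. As above, H2-Aa and H2-Ea had to differ, so their part in the counts and the median supports nothing. By brightest probe 6 of 7 genes were lower and 1 was higher, beside 11.3% of named genes, 4.71% higher and 6.57% lower. The median change of the 12 probes was -1.80, against 0.03 over all probes.

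H2-Eb1 measured 9.07 and 9.25 in SSCTR ovaries, against the POF values of 11.32 and 11.50, a change of -2.25 ± 0.18 (limma adjusted p = 9.91e-05). H2-Ab1 measured 7.99 and 8.03 in SSCTR on ILMN_1226525, against 11.14 and 11.45 in POF, a change of -3.29 ± 0.19 (adjusted p = 1.80e-05). Its other probes gave -2.17 ± 0.24 (ILMN_2631423; 8.98 and 9.17 in SSCTR) and -2.00 ± 0.18 (ILMN_2913716; 8.50 and 8.63 in SSCTR). On no probe of either gene did an SSCTR array come within 1 log2 unit of a POF array.

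H2-Aa was not above background in SSCTR, where it measured 4.65 and 4.36, against 7.40 and 6.61 in POF. It was at least 4.45-fold lower in SSCTR (limma adjusted p = 0.000465). H2-Ea measured 7.26 and 7.33 in SSCTR, against 4.33 and 4.29 in POF, not above background. It was at least 5.96-fold higher in SSCTR (adjusted p = 0.00249), and without any 1 of the arrays compared its fitted change stayed between 2.95 and 3.03. Without background correction the fitted changes were smaller, -1.09 for H2-Aa and 1.37 for H2-Ea, and both passed.

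Cd74 measured 10.07 and 10.16 in SSCTR, against 11.20 and 11.43 in POF, on its brightest probe, a change of -1.20 ± 0.21 (limma adjusted p = 0.00682). Its other probes changed by -1.29 ± 0.18 and -1.20 ± 0.21. H2-DMa measured 7.46 and 7.07 in SSCTR, against 8.87 and 9.16 in POF, a change of -1.75 ± 0.23 (adjusted p = 0.00163), with -1.84 ± 0.22 on its other probe. The SSCTR value of H2-DMb1 was 7.13 and 7.14, against 8.44 and 8.48 in POF, a change of -1.33 ± 0.17 (adjusted p = 0.00166). Every chaperone probe thus passed here. Without POF replicate 3 the Cd74 calls of ILMN_1221817 (adjusted p = 0.0665) and ILMN_3089584 (0.0596) ended, and without POF replicate 2 that of ILMN_3089584 (0.0541). Relative to Cd74 on the same arrays, the difference was -1.05 for H2-Eb1 (-1.12 to -0.98 over pairs of arrays) and -0.55 for H2-DMa (-0.83 to -0.28), again as a description.

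**Figure D2:**
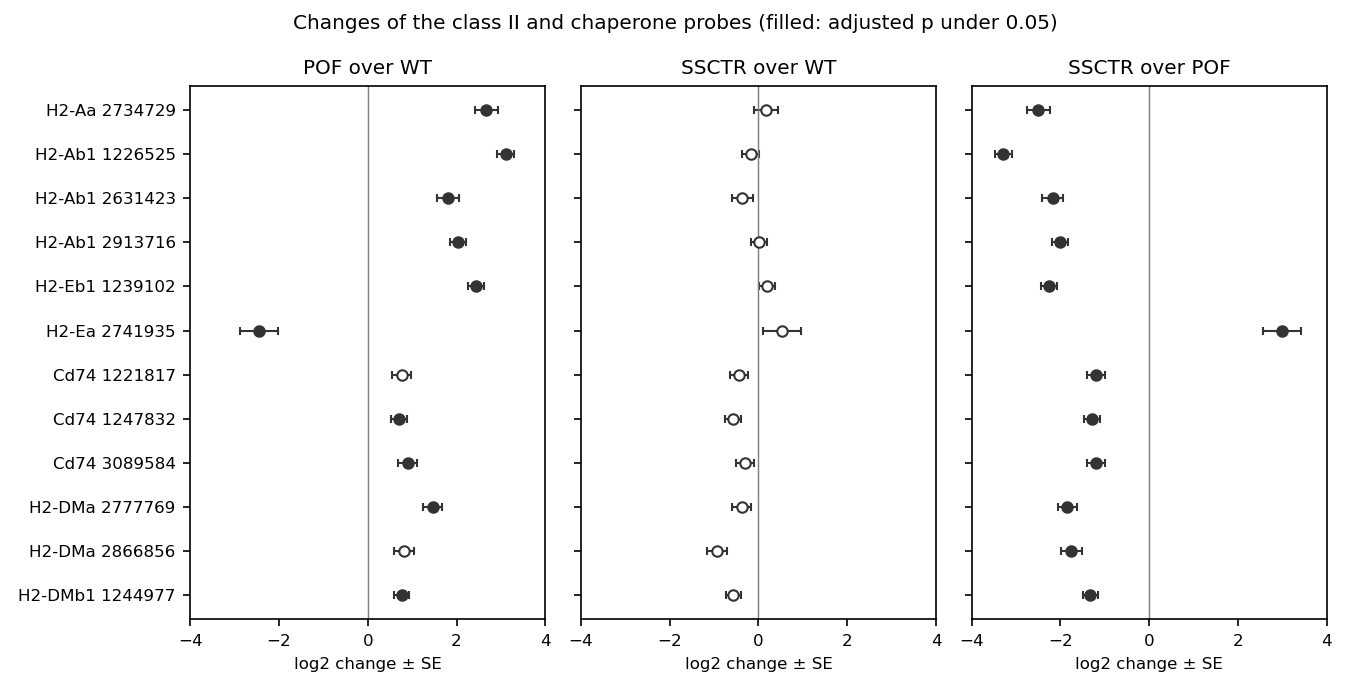
Log2 change with its SE (horizontal axis) of each probe (vertical axis) in the 3 comparisons, filled where the limma adjusted p was under 0.05. In POF over WT the H2-Aa, H2-Ab1 and H2-Eb1 probes lie between 1.81 and 3.11 and the Cd74 and H2-DM probes between 0.71 and 1.46, and no probe of SSCTR over WT is filled.

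SSCTR against WT ovaries gave no call among the 12 probes in limma, where 2.44% of all probes passed, 1.29% higher and 1.15% lower; 3 of the 12 had an unadjusted p under 0.05. By brightest probe 0 of 7 genes passed, 2 with an unadjusted p under 0.05, beside 2.58% of named genes, 1.45% higher and 1.13% lower. The 3 probes were H2-DMa on ILMN_2866856 at -0.94 ± 0.23 (adjusted p = 0.0756), Cd74 on ILMN_1247832 at -0.57 ± 0.18 (0.152) and H2-DMb1 at -0.57 ± 0.17 (0.142), all lower in SSCTR. H2-DMa measured 7.46 and 7.07 in SSCTR against 8.42 and 7.98 in WT, and the groups did not overlap. Its call appeared with an offset of 50 (adjusted p = 0.0203), with no background correction (0.0149), with the authors' normalized values (0.0152) and with a prior that follows the mean (0.00731). The H2-DMb1 call appeared with no background correction (0.0463) and with the authors' values (0.0468).

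Among the I-A and I-E genes, H2-Eb1 was at 0.19 ± 0.18 in SSCTR relative to WT (limma adjusted p = 0.667), and the H2-Ab1 probes were at -0.17 ± 0.19, -0.36 ± 0.24 and 0.02 ± 0.18. H2-Aa was not above background in either group. H2-Ea was at 0.53 ± 0.43 (adjusted p = 0.603), with 7.26 and 7.33 in SSCTR around or between the WT values of 5.94 and 7.61. Without WT replicate 3 the H2-Ea change was 1.36 and passed (adjusted p = 0.0396), and without WT replicate 2 it was -0.31 (0.658). The sign of the H2-Ea difference between SSCTR and WT therefore rested on which WT array was used.

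By level, each of the H2-Aa, H2-Ab1, H2-Eb1, Cd74 and H2-DM probes was highest in POF. WT came next for all Cd74, H2-DMa and H2-DMb1 probes, with SSCTR last, but on no probe did SSCTR and WT differ past the threshold. H2-Ea was lowest in POF, and its order between SSCTR and WT was not settled.

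The order of genes along chromosome 17 in RefSeq (GRCm38.p6) was used to look at neighbours; Cd74 lies on chromosome 18. The outermost members there are H2-DMa and H2-Ea, and 6 other protein-coding genes between them were tested. In POF against WT 1 of these 6 was higher, H2-DMb2, a further beta chain of the H2-DM pair (0.92 ± 0.19, limma adjusted p = 0.0175). The peptide transporter genes Tap1 (0.08 ± 0.20) and Tap2 (-0.09 ± 0.22) and the immunoproteasome genes Psmb8 (-0.07 ± 0.19) and Psmb9 (0.23 ± 0.19), which feed class I molecules, did not pass. Neither did H2-Ob (-0.19 ± 0.17), a beta chain of the H2-DO modulator, which was above background in WT but not in POF or SSCTR. Of 22 tested genes among the 15 on either side, 2 were higher in POF, Wdr46 (0.93) and the class I gene H2-K1 (1.5). The median change was 0.00 for the genes between the members and -0.09 for those on either side.

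In SSCTR against POF 4 of the same 6 neighbours were lower: H2-DMb2 (-1.63 ± 0.19, limma adjusted p = 0.000866), Tap1 (-1.0), Psmb9 (-0.90) and Psmb8 (-0.83). Psmb8 was also lower in SSCTR than in WT (-0.90, adjusted p = 0.0451), and has a second probe at 0.01 there and at 0.88 in SSCTR against POF, neither past the threshold.

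**Figure D3:**
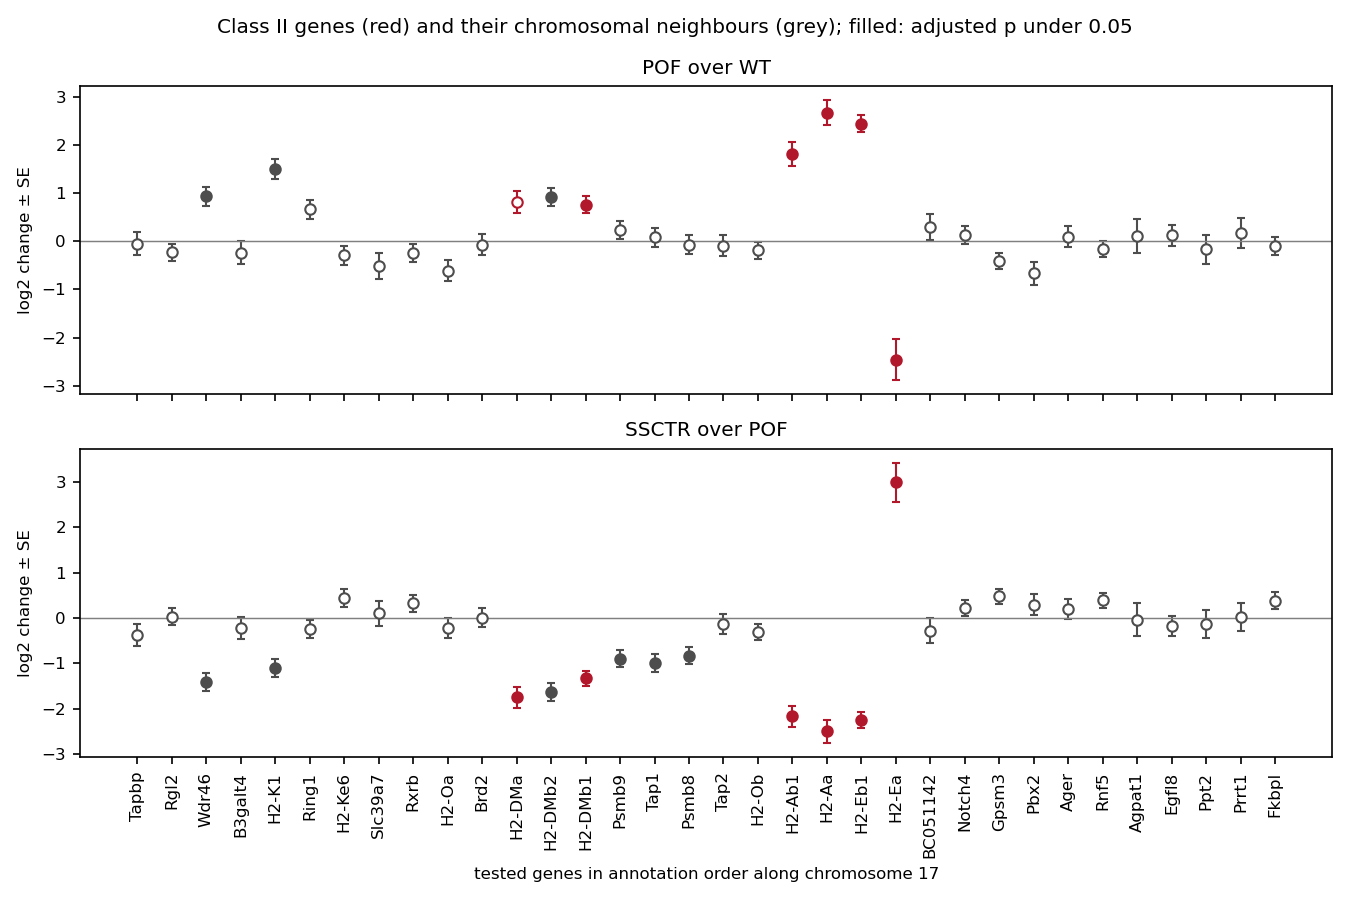
Log2 change with its SE (vertical axis) of tested genes in their annotated order along chromosome 17 (horizontal axis), class II members in red and other genes in grey, filled where the limma adjusted p was under 0.05. H2-Ab1, H2-Aa, H2-Eb1 and H2-Ea, which lie close together, have the largest changes in both comparisons, with H2-Ea opposite in sign.

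The rest of the class II machinery was taken from lists that hold no member. Counts in these lists and among the neighbours stand beside the shares of all named genes. Those were 6.13% higher and 4.37% lower in POF against WT, and 4.71% higher and 6.57% lower in SSCTR against POF. Of 14 further class II and control genes 12 were tested, and in POF against WT 1 was higher, H2-DMb2, and 0 were lower, with a median of 0.05 against -0.03 over all named genes. Ciita, the coactivator of class II transcription, measured 5.14 and 5.66 in POF against 4.88 and 5.12 in WT, near the lowest detected values (0.40, limma adjusted p = 0.336). It was at -0.64 in SSCTR against POF (adjusted p = 0.129). The factors that bind the X and Y boxes gave no call in either comparison. Rfx5, Rfxap and Rfxank were at -0.03, -0.12 and -0.48 in POF against WT, and Nfya, Nfyb and Nfyc at -0.27, 0.55 and 0.16. Rfx5 was above background on 1 of 2 POF and 1 of 2 WT arrays. Nfya was above it on neither POF array and on 1 of 2 WT arrays. The values of Rfx5 and Nfya thus compare levels close to background. H2-Oa, the alpha chain of H2-DO, was above background in WT but not in POF or SSCTR.

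Of 10 tested peptide loading proteases and their partners, 2 were higher and 1 was lower in POF than in WT, with a median of -0.11. Ctsc, a protease that activates granule enzymes, was 8.57-fold higher (10.48 and 10.56 in POF against 7.40 and 7.44 in WT; limma adjusted p = 2.52e-05), with 2.23 and 3.05 on its other probes. Ctsh was 3.10-fold higher. Ctsl, which trims the invariant chain in thymic epithelium, was 2.53-fold lower (adjusted p = 0.0061). Ctss, which trims it in antigen-presenting cells, was above background on 1 of 2 POF and 1 of 2 WT arrays and at -0.05. In SSCTR against POF, Ctsc (-3.32), Ctsb (-1.20) and Ctsh (-0.99) were lower and Ctsl was higher (1.67). These members are general lysosomal proteases as well.

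Class I presentation genes, whose molecules show peptides from inside the cell, were set beside class II. Of 18 tested, 2 were higher in POF than in WT and 0 were lower, with a median of 0.02: H2-K1 (1.5; 0.66 on its second probe) and H2-Q7 (0.96). B2m, the light chain of class I, was at 0.34 (limma adjusted p = 0.274). In SSCTR against POF 9 of 18 were lower and 1 was higher, with a median of -0.68. Nlrc5, the coactivator of class I transcription, was at least 2.75-fold lower, above background on 1 of 2 SSCTR arrays, H2-K1 was at -1.10, and H2-Q7 at -1.04; H2-Q6 was higher (1.04). In SSCTR against WT, Nlrc5 (at least 2.10-fold), H2-D1 and Psmb8 were lower, 3 of 18.

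The H2-D1 probes contradicted each other. In SSCTR against WT they were at 2.49 (limma adjusted p = 0.000365), 0.39, -1.82 (0.0131) and -1.25 (0.0244). Class I genes have close copies and many alleles, and their probes may cross-react, so a change of H2-D1, H2-K1, H2-Q6 or H2-Q7 is uncertain here.

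Interferon gamma, which induces Ciita, was followed through 15 tested genes of its response. In POF against WT, 1 was higher (Cxcl10, a chemokine, 0.83, limma adjusted p = 0.0223) and 0 were lower, with a median of 0.14. In SSCTR against POF 7 of 15 were lower and 0 were higher, with a median of -0.66: Cxcl10 was at least 2.39-fold lower, above background on 1 of 2 SSCTR arrays, Cxcl9 was at -1.03, and the GTPase genes Irgm2 and Gbp2 were at -0.99 and -0.95. Ifng itself was not above background on any array. Of 7 tested costimulation genes 0 passed in POF against WT (Cd86 at 0.31, Cd40 at 0.19), and in SSCTR against POF Cd274 was lower (-1.11) and Cd83 higher (0.78).

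Some markers of cells that can carry class II were also higher in POF, and their part in the result was not tested. Of 18 tested macrophage genes 7 were higher in POF than in WT and 0 were lower, with a median of 0.55. Gpnmb, a lysosomal glycoprotein, was 8.84-fold higher, the Fc receptor gamma chain Fcer1g by 2.00 on the log2 scale, Ms4a7 3.02-fold and lysozyme Lyz2 2.85-fold. The dimmer tested probes of Gpnmb and Lyz2 gave smaller log2 changes, 1.78 and 1.07, and both passed. Adgre1, the gene of the macrophage antigen F4/80, was at 0.10 (limma adjusted p = 0.895), and Csf1r, the receptor for the growth factor of macrophages, was at 0.34 (0.432). The summed level of the list, as linear normalized intensity, was 11818 and 15182 in POF, against 5053 and 5344 in WT. In SSCTR it was 4884 and 4310, and 9 of 18 genes were lower than in POF and 0 were higher. Lyz2, the brightest gene of the list, made up a large part of these sums. It measured 12.49 and 13.13 in POF against 11.20 and 11.40 in WT.

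Of 7 tested leukocyte genes 2 were higher in POF than in WT, Laptm5 (1.04) and Lcp1 (1.00). The summed level was 3944 and 3997 in POF against 2467 and 2572 in WT. In SSCTR it was 1734 and 1605, and 6 of 7 genes were lower than in POF, Laptm5 most (-1.5). Laptm5, the brightest gene of the list, made up a large part of these sums. It measured 11.04 and 10.95 in POF against 9.91 and 9.99 in WT. Ptprc, the gene of CD45, was not above background on any array.

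Of 5 tested dendritic cell genes 0 passed in POF against WT. Clec9a, a receptor of cross-presenting dendritic cells, was above background on both POF arrays and on 1 of 2 WT arrays, at 0.84 (limma adjusted p = 0.0602), and on neither SSCTR array, at -0.96 against POF (0.0359). The summed level was 874 and 828 in POF against 1179 and 1165 in WT, and most of it came from Fscn1, an actin bundling protein not limited to dendritic cells (9.39 and 9.41 in POF against 9.98 and 9.99 in WT). Fscn1 was higher in SSCTR than in POF (0.66, adjusted p = 0.0397). Itgax, the gene of CD11c, was not above background on any array. Flt3 was above background on 1 of 2 POF arrays and on neither WT array, at 0.18. Of B cell genes only 2 were tested. Cd79b was lower in POF than in WT (-1.51, limma adjusted p = 0.0195, and -0.64 on its second probe). It was also lower in SSCTR than in WT, by at least 2.72-fold (limma adjusted p = 0.0265), above background on 1 of 2 SSCTR arrays. Its second probe was at -0.98 there and did not pass. The list summed to 51 and 54 in POF against 147 and 99 in WT. The other gene, Cd22, measured 4.41 and 4.48 in POF, not above background, so part of the POF sum is background signal. Of 5 T cell genes 1 was higher in POF, Cd3g (0.74), with Cd3e at 0.61 (adjusted p = 0.211), and the list summed to 298 and 267 in POF against 218 and 192 in WT. In SSCTR against POF 2 of these 5 were lower and 0 were higher. Cd3g was at -1.49, and Cd3d was at least 1.97-fold lower, above background on 1 of 2 SSCTR arrays.

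Of 10 tested oviduct epithelium genes 4 were higher and 1 was lower in POF than in WT: Ovgp1, the oviduct glycoprotein, was higher by at least 85.8-fold, above background on 1 of 2 WT arrays, and was at 0.38 on its dimmer probe. Ltf was at 4.74, Dynlrb2 was at least 10.1-fold higher, and Tekt1 was at 1.45. Cd24a was lower (-0.83, limma adjusted p = 0.0199), the epithelial genes Epcam and Cdh1 were at -0.54 and -0.53 and did not pass, and Foxj1 and Pax8, factors of ciliated and secretory oviduct cells, were not above background on any array. Cdh1 was higher in SSCTR than in POF (1.01, adjusted p = 0.00914). Ovgp1 and Ltf made up most of the summed level in POF. The list summed to 6943 and 5546 in POF against 823 and 862 in WT, and to 737 on both SSCTR arrays. Whether oviduct tissue in the samples contributed class II RNA was not tested.

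**Figure D4:**
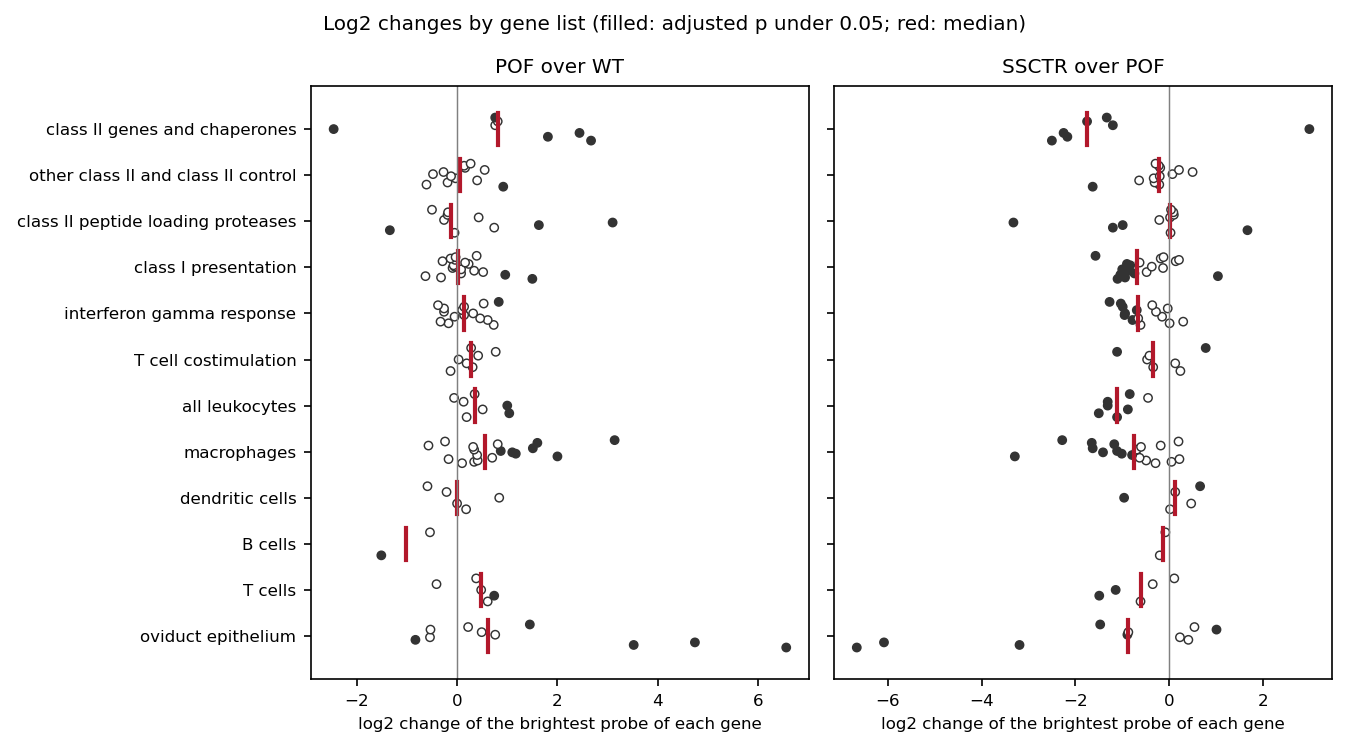
Log2 change of the brightest probe of each tested gene (horizontal axis) by gene list (vertical axis) in POF over WT and SSCTR over POF, filled where the limma adjusted p was under 0.05, with the list median as a red bar. The macrophage and oviduct lists have medians of 0.55 and 0.62 in POF over WT, and the class I and interferon gamma lists lie near 0 there but at -0.68 and -0.66 in SSCTR over POF.

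The genes most like a member were found by the root mean squared difference between log2 values over the 6 arrays, each gene centred on its own mean, brightest probes. For Cd74 they were Mpeg1, a macrophage pore protein (0.09), Nxpe4 (0.10), the lysosomal chloride channel Clcn7 (0.10) and the inflammatory caspase Casp4 (0.11). For H2-Eb1 they were the uroplakin Upk1a (0.08), Arhgef4 (0.14), Enpp5 (0.14) and the kallikrein Klk1 (0.16). For H2-Aa they were the urea transporter Slc14a1 (0.08), Rab25 (0.20), Aoc1 (0.24) and Arhgef4 (0.24). Slc14a1 and Upk1a, like H2-Aa itself, were not above background on any SSCTR or WT array, nor was Rab25 in SSCTR or Klk1 in WT, so part of this likeness sets background values side by side. H2-Ea had no gene as close: Itga2 (0.53), Pik3c2g (0.57), Nicn1 (0.58) and the oocyte factor Nobox (0.59) came nearest. The arrays share 3 groups, and probes that differ only between groups score as alike.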

How the data were processed

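The authors deposited, per the file headers, a mean bead signal with its detection p-value for each probe and sample column, and a second table of normalized intensities. GenomeStudio is the only tool named in the submitters' processing notes; its version, slides and chip positions are not given in the sources used here. The deposited intensities are linear, and the sorted signals of replicates 2 and 3 lie within 0.541% of each other, so they had been brought to one distribution. The deposited detection columns of replicate 1 reach above 1, are a multiple of the mean of the others and were recorded as a score, not a p-value; replicate 1 was left out.

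Intensities were corrected and normalized with neqc of limma 3.58.1 (R 4.3.3; offset 16), which uses the detection p-values, and taken to log2. Probes with detection p under 0.05 on at least 2 of 6 arrays (19394) were fitted in one limma model of 3 groups (prior degrees of freedom 6.13, residual 3). A probe passed where its p, adjusted by Benjamini-Hochberg across those 19394, was under 0.05. The fit was tested on simulated data. The number of arrays limits the precision. Same-numbered replicates did not deviate together (r = -0.06, -0.019 and -0.005 across probes), so samples were unpaired.

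Of 45281 probes 34885 carry 1 symbol, 18 several and 10378 none; 34807 were checked by Entrez identifier. Every member probe is named; other lists name at most 4 genes with the largest change past the threshold in a comparison, beside marker genes always named; list genes outside that rule, probes that disagree and tested neighbours were added after their values were seen. The members and lists were chosen with earlier results of these data known. Sequences are RefSeq promoters of GRCm38.p6. Alternatives covered background correction, normalization, filter, probe choice, prior, samples fitted, replicate block and each array left out. No background correction and the authors' normalized table gave nearly the same values throughout, so they are not separate results.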

Additional observations from a re-analysis of the deposited data

How the results depend on the processing

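Over all alternatives run, the class II and chaperone probes kept their sign in POF against WT (151 values) and in SSCTR against POF (151 values). Many of these values could not change sign. The settings for filter, probe choice, prior, replicate block and only the 4 arrays compared leave the fitted change itself as it was. Only background correction, normalization and leaving out an array could move it. In SSCTR against WT 3 of 151 values had the other sign, none of them past the threshold. In POF against WT 17 values lost the call and 11 gained it, in SSCTR against POF 3 lost it, and in SSCTR against WT 7 gained it. By brightest probe, 5 of 7 genes passed in POF against WT (3 to 4 with 1 array left out, and over the other alternatives 4 with no filter to 7), 7 in SSCTR against POF (6 to 7) and 0 in SSCTR against WT (0 to 1). The counts with POF hold H2-Aa and H2-Ea, which had to differ by the way they entered the test. In SSCTR against WT 1 gene passed with an offset of 50 and 1 with a prior that follows the mean. With no background correction 2 passed, and 2 with the authors' normalized table, which gave nearly the same values. The cause was not tested. Over all probes, SSCTR against WT had 474 calls, against 878 with an offset of 50, 976 with no background correction, 972 with the authors' table, 919 with a prior that follows the mean and 297 with no filter on dim probes, which tests more probes. With 1 array left out, and so fewer samples, the calls over all probes were 672 to 862 of 1847 (POF against WT), 137 to 192 of 474 (SSCTR against WT) and 842 to 1196 of 1959 (SSCTR against POF); the lone array of a group is then assumed to vary like the others. The replicate numbers did not pair the samples; with them as a replicate block 5, 0 and 7 genes passed in POF against WT, SSCTR against WT and SSCTR against POF, and 1580, 370 and 1735 probes. With the block the call of Cd74 on ILMN_1247832 in POF against WT ended (adjusted p = 0.0547). Signal close to background limits H2-Aa, H2-Ea, H2-Oa, H2-Ob, Ciita, Rfx5, Nfya and Ctss, among others.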
